A study of Arabis alpina with 12 samples.

Results

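The domains described here are stretches of cytosine methylation (5mC) that lay beside a gene, outside H3K27me1, in young leaves of Arabis alpina. They were chosen by position. A domain of the 5mC list was taken when it touched no gene span of the mRNA table, lay at most 2000 bp from one, and touched no H3K27me1 domain. Of 61122 domains in the list, 5441 met this rule, which is 8.90%. They held 2.41 Mb, 4.21% of the methylated sequence. Their position, their length, their 5mC score and their lack of H3K27me1 belong to the rule or to the data it used, and are given as description.

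All plants were of accession Pajares, a perennial relative of Arabidopsis, kept in soil at 22.5 °C with 16 h of light and 8 h of dark. No genotype or treatment was varied, so the comparisons below are between places in 1 genome. Histone marks were profiled by chromatin immunoprecipitation (ChIP-seq), with 2 libraries each for H3K4me3, H3K27me3 and H3K27me1 and 1 shared input, and 5mC by immunoprecipitation of methylated DNA (MeDIP-seq), with 2 libraries and 2 inputs. mRNA was sequenced in 1 library. Each mark came as 1 domain list with no separate replicates, and sequencing depth is unknown. No value below therefore has a replicate error, no test of a difference was possible, and each interval in brackets covers counting error or spread over genes only. Intervals printed beside percentages are exact (Clopper-Pearson) 95% intervals, and those beside medians are order-statistic 95% intervals. Weighted values of comparison genes have no interval, and intervals of differences from them take them as fixed.

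In plants, dense cytosine methylation marks transposons and other repeats. H3K27me1 is a histone mark of compact heterochromatin, where in Arabidopsis it accompanies methylated DNA. Short methylated repeats can also lie in gene-rich euchromatin, where in Arabidopsis their methylation is maintained in part by small RNAs. H3K4me3 marks the starts of transcribed genes and H3K27me3 is the mark of Polycomb repression.

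The methylated domains without H3K27me1 were short and lay close to their genes. Their median length was 300 bp (quartiles 150 and 600 bp, longest 3750 bp), and 1425 of them, 26.2%, were a single window of 150 bp. The 4439 domains that met the same distance limit but touched H3K27me1 had a median of 900 bp (quartiles 600 and 1500 bp). The 15825 domains without H3K27me1 over 2000 bp from genes also had a median of 300 bp (quartiles 150 and 600 bp). Of these, 25.5% were a single window, so the short length was not particular to domains beside genes. The median distance to the nearest gene was 794 bp (770 to 825) without H3K27me1 and 1016 bp (988 to 1046) with it. Domains without H3K27me1 were most frequent at 200 to 299 bp from a gene, with 410, against 239 with H3K27me1. At 1900 to 2000 bp the numbers were 175 and 210. In the first 100 bp there were 274 without and 112 with H3K27me1, and 2 of those without H3K27me1 met the gene edge with no base between.

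**Figure D1:**
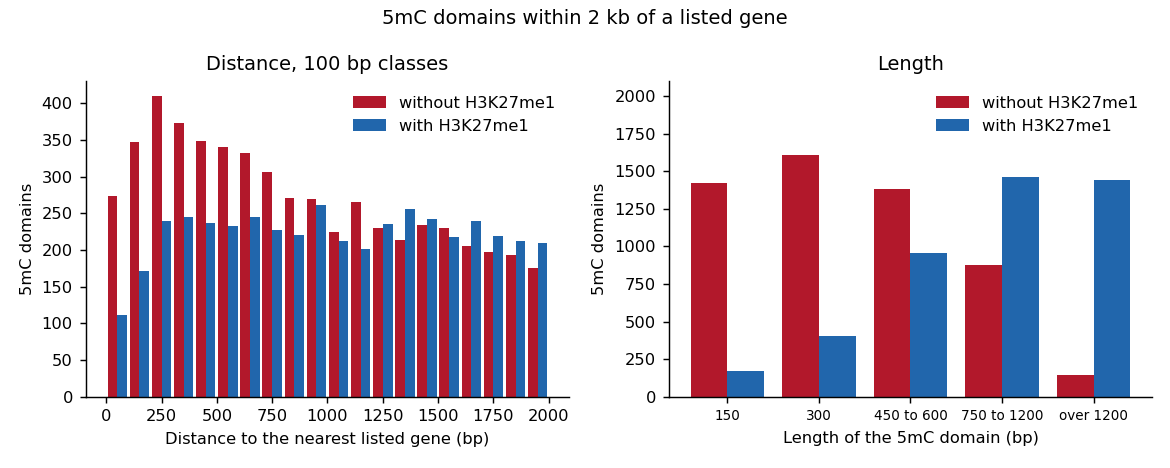
Number of 5mC domains within 2 kb of a listed gene, without H3K27me1 (red) and with it (blue), by distance to the gene in 100 bp classes (left) and by domain length in bp (right). Domains without H3K27me1 peak at 200 to 299 bp with 410. They are the more frequent kind in the length classes of 150, 300 and 450 to 600 bp, while only 145 are longer than 1200 bp.

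Most of these domains were small parts of long gaps between genes. Of the 5441, 5156 had a listed gene on both sides. The gap between those genes had a median of 9243 bp (quartiles 4632 and 19515 bp), of which the domain filled a median of 3.82%. Only 700 domains, 12.9%, were within 2000 bp of genes on both sides. Their nearest genes were 4701 in number, 19.1% of the 24657 listed. Of these genes, 4022 had 1 such domain, 619 had 2 and 60 had 3 or 4.

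The absence of H3K27me1 went with domain length. Among all 5mC domains within 2000 bp of a gene, 89.3% (87.7% to 90.8%) of those of 150 bp lacked H3K27me1, and 79.9% (78.1% to 81.7%) of those of 300 bp. The share was 37.5% (35.5% to 39.5%) at 750 to 1200 bp and 9.13% (7.75% to 10.6%) above 1200 bp. A longer domain has more windows that can touch H3K27me1, and the part of this in the trend was not tested.

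At one length, the share without H3K27me1 was higher nearer to genes. For domains of 150 bp it was 98.1% within 250 bp of a gene, 83.3% at 1500 to 2000 bp and 67.1% at 10000 to 50000 bp (each class of distance takes its upper bound and not its lower). For domains of 600 bp it was 64.0%, 37.8% and 30.5% at the same distances. For domains of 150 and 300 bp the share was lower still beyond 2000 bp. Domains of 1200 bp gave 33.3% of 33 domains within 250 bp (17.96% to 51.8%) and 14.3% of 77 at 1500 to 2000 bp (7.35% to 24.1%), with intervals that overlap.

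**Figure D2:**
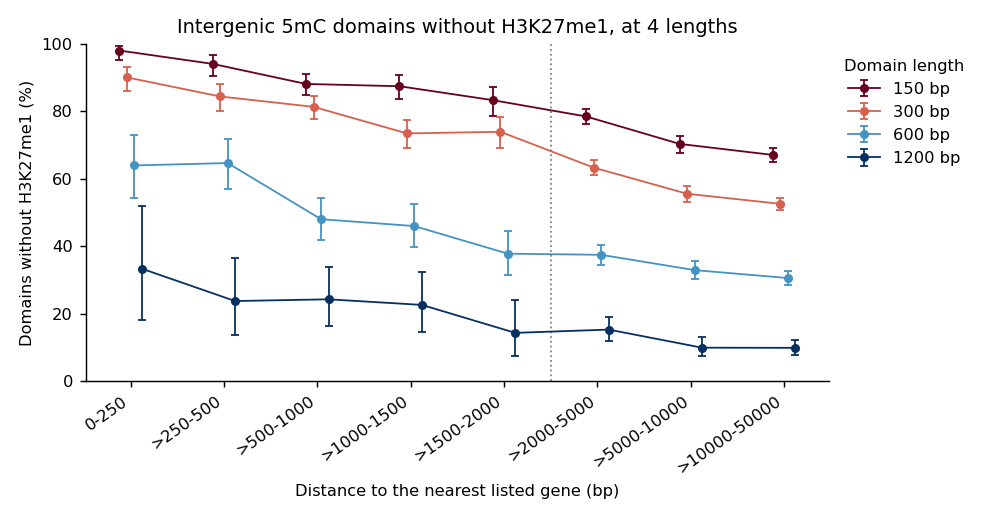
Percentage of intergenic 5mC domains that touch no H3K27me1 domain, by distance to the nearest listed gene in bp, for domains of 150, 300, 600 and 1200 bp; bars are exact 95% intervals and the dotted line marks the 2000 bp limit. At each of the 4 lengths the share within 250 bp of a gene is above that at 10000 to 50000 bp, for example 98.1% against 67.1% at 150 bp.

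Across the distance limit of the rule the marks on the domains were close and their median lengths differed. Across the H3K27me1 limit the median lengths were equal and the marks differed. The 273 domains in the last 150 bp before the distance limit had a median length of 300 bp, and the 277 domains without H3K27me1 in the first 150 bp beyond it had 450 bp. H3K4me3 touched 1.83% of these 273 and 2.17% of the 277, and H3K27me3 8.79% and 7.22%. At the other limit, 406 of the chosen domains lay at most 150 bp from an H3K27me1 domain. Another 582 domains were left out because 150 bp of them were in one. Both sets had a median length of 300 bp. H3K4me3 touched 2.46% of the 406 and 12.7% of the 582, and H3K27me3 touched 5.17% and 12.0%. The score is the whole number the authors gave each domain, and was compared only within the 5mC list. The score itself had a median of 247 for the chosen domains, 672 for flanking domains with H3K27me1 and 400 over the whole list. Divided by length, its median over all chosen domains was 727 per kb (718 to 736), against 714 per kb (706 to 724) for flanking domains with H3K27me1, and 673 per kb over the whole list. At equal length the order varied. The median per kb was 807 without H3K27me1 and 780 with it at 150 bp, but 707 and 743 at 300 bp, and it was lower without H3K27me1 in 4 of 5 classes of length.

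The domains rarely touched H3K4me3 or H3K27me3. H3K4me3 touched 79 of 5441, 1.45% (1.15% to 1.81%), against 869 of 4439 flanking domains with H3K27me1, 19.6% (18.4% to 20.8%), and 18.2% of all 5mC domains. H3K27me3 touched 354, 6.51% (5.87% to 7.19%), against 743 with H3K27me1, 16.7% (15.7% to 17.9%), and 15.0% of all 5mC domains. In each of 5 classes of length both shares were lower without H3K27me1 than with it. At 300 bp, H3K4me3 touched 1.06% (0.617% to 1.69%) without H3K27me1 and 12.9% (9.76% to 16.5%) with it. H3K27me3 at that length touched 6.46% (5.31% to 7.78%) and 15.6% (12.2% to 19.5%) in the same order. The 15825 domains without H3K27me1 that lay over 2000 bp from genes gave nearly the same shares, 1.61% for H3K4me3 and 6.52% for H3K27me3, so these low shares were also found away from genes.

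Some lay close to H3K4me3. Without touching it, 988 domains (18.2%) lay within 300 bp of an H3K4me3 domain, 236 of them directly adjacent. Of the 4439 flanking domains with H3K27me1, 506 (11.4%) lay so close without touching. Another 869 of those touched H3K4me3, against 79 of the chosen domains. For the chosen domains, the median gap to the nearest H3K4me3 domain, among those not touching one, was 1200 bp (quartiles 450 and 2250 bp). To the nearest H3K27me3 domain it was 7350 bp, and to the nearest H3K27me1 domain 3900 bp.

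The marks along the flank were traced over 2104 flanks with such a domain, of genes of at least 2 kb on the 8 chromosomes whose flank was free of other listed genes for 2 kb. H3K4me3 covered 53.8% of these genes at 200 to 300 bp inside the edge, 14.4% in the first 100 bp outside and 1.62% at 200 to 300 bp outside. On 6529 flanks of genes with no 5mC within 2 kb H3K4me3 took the same course, with 45.4%, 10.7% and 1.13% at these places. On the flanks with the domains 5mC covered 1.76% in the last 100 bp of the gene, 14.8% at 200 to 300 bp outside and 30.6% at 900 to 1000 bp outside, its highest value. Its low level inside the gene edge belongs to the rule, since a chosen domain touches no gene, and the profiles say nothing of a relation between the marks. At 1900 to 2000 bp H3K4me3 was at 1.62% on these flanks and at 7.23% on 1397 flanks with 5mC and H3K27me1, where 5mC was at 57.9%.

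**Figure D3:**
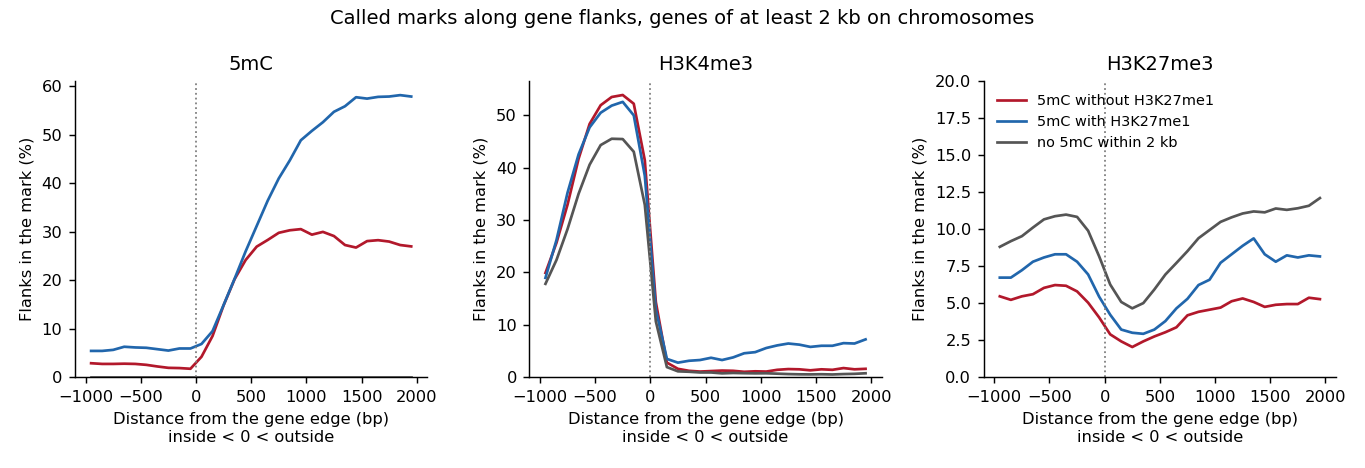
Percentage of gene flanks with 5mC, H3K4me3 or H3K27me3 called in each 100 bp step, by distance from the gene edge in bp (negative inside the gene), for flanks with 5mC without H3K27me1 (red, 2104 flanks), with 5mC and H3K27me1 (blue, 1397) and of genes with no 5mC within 2 kb (grey, 6529). H3K4me3 peaks inside the gene at 53.8% on the red flanks and is at 1.62% at 200 to 300 bp outside, where 5mC is at 14.8%.

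The genes nearest to these domains were set against the 14961 listed genes with no 5mC in the span or within 2000 bp, weighted to the same spans in 10 classes. A mark had to cover 200 bp or more of a gene to be counted on it. H3K4me3 was on 81.9% (80.8% to 83.0%) of the 4701 genes beside the domains, on 75.3% of the comparison genes and on 76.2% of all listed genes. H3K27me3 was on 13.7% (12.7% to 14.7%), on 12.2% of the comparison genes and on 13.1% of all listed genes. H3K27me1 was on 5.83% (5.18% to 6.54%), 1.16% and 4.60% in the same order, and since the rule used H3K27me1 this is description. The share for H3K27me3 was thus near that of all listed genes.

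Part of the excess in H3K4me3 lay in the comparison genes on unplaced scaffolds. H3K4me3 was on 77.6% of the scaffold genes beside the domains and on 38.5% of the 1486 scaffold comparison genes, of which 892 were on scaffolds without a domain of any mark. On the 8 chromosomes alone H3K4me3 was on 82.3% of 4260 genes beside the domains and on 79.5% of 13475 comparison genes. H3K27me3 was on 13.6% and 12.8%. It is not known here whether these scaffolds were in the mapping reference of the mark libraries. If they were not, their lack of marks and of 5mC is missing data, which touches the 38.5%, the 75.3% and the excess over all sequences. Values on chromosomes are therefore given for the main comparisons, while those by length, score and side of the domain and against genes beside H3K27me1 are over all sequences.

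The comparison genes also stood in denser surroundings. The distance to the nearest other listed gene had a median of 2142 bp for genes beside the domains and 438 bp for comparison genes, on chromosomes. When comparison genes were weighted by span and by this distance together, H3K4me3 was on 82.3% of genes beside the domains and on 77.5% of comparison genes on chromosomes, a difference of 4.80 percentage points. H3K27me3 was then on 13.6% beside the domains and on 18.7% of comparison genes, so that its difference changed sign. The weighting brought the spacing of the comparison genes near that of the others but not level, with medians of 2142 bp beside the domains and 1794 bp for comparison genes. Against genes without 5mC so weighted, the share with H3K4me3 was thus the higher one beside the domains and the share with H3K27me3 the lower one.

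mRNA coverage of these genes was close to that of genes without nearby methylation. The table gives exon coverage in leaves, with 1 as the lowest value listed. The median was 6.05 (5.76 to 6.36; quartiles 2.42 and 13.6) for genes beside the domains and 5.97 for comparison genes of the same span (quartiles 2.48 and 13.1). This is a difference of 0.017 in log2(coverage + 1), with -0.044 to 0.079 from the interval of the first median. The lowest value was held by 8.93% (8.13% to 9.79%) of genes beside the domains, 7.43% of comparison genes and 8.86% of all listed genes. With weighting by span and spacing the comparison genes over all sequences, scaffolds included, were at 9.44%, so that the sign turned. On chromosomes the share was 8.47% (7.65% to 9.35%) beside the domains, against 6.39% by span and 7.62% by span and spacing. There the sign did not turn. On chromosomes the medians were 6.29 (5.97 to 6.65) and 6.18. With weighting by span and spacing they were 6.29 and 5.81 on chromosomes, a difference of 0.098.

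Methylation inside the gene separated the genes beside the domains into 2 unequal sets. For 4260 of the 4701, no 5mC lay in the span. Their median coverage was 6.54 (6.23 to 6.93), against 5.98 for comparison genes of the same span, and on chromosomes 6.72 (6.36 to 7.06) against 6.19. At the lowest value were 6.62%, against 7.53%, and on chromosomes 6.61% (5.85% to 7.44%), against 6.45%. With span alone the sign of this small difference thus turned on chromosomes. With weighting by span and spacing the comparison genes were at 9.45%, and on chromosomes at 7.65%. The share beside the domains was then the lower one in both. The other 441 genes had 5mC in the span as well. Their median was 2.30 (1.91 to 2.80), against 5.89, and 31.3% (26.99% to 35.8%) were at the lowest value, against 6.53%. On chromosomes the medians were 2.42 and 6.01, and the shares at the lowest value 29.7% and 5.78%. H3K27me1 was on 50.8% of these 441 genes and H3K27me3 on 23.8%, against 1.17% and 12.6% of the genes without 5mC in the span. The 441 genes thus held 138 of the 420 genes at the lowest value beside the domains. In the 3327 genes for which such domains were the only 5mC in the span or within 2000 bp, the median was 6.70 (6.28 to 7.04), against 5.99, a log2 difference of 0.14, which was 0.13 on chromosomes.

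Gene span went with the same division, at a median of 2953 bp for the 441 genes with 5mC in the span and 2045.5 bp for the 4260 without. The classes of span below take all genes beside the domains, with or without 5mC in the span. Among genes of 4641 bp and longer, 22.5% of the 512 beside the domains carried H3K27me1, against 3.39% of comparison genes, and 12.1% were at the lowest coverage, against 4.24%. Their median coverage was 5.05 (4.51 to 5.47), against 5.67. On chromosomes it was 5.37 (4.80 to 5.76), against 5.75, so that the interval there took in the comparison median. Among genes of 1221 to 3446 bp, in 6 classes of span, the medians lay between 6.46 and 7.07 beside the domains and between 6.09 and 6.56 in comparison genes. In the shortest class, 113 to 827 bp, the medians were 3.76 and 3.79, and H3K4me3 was on 67.2% and 39.5% of genes. On chromosomes that last pair was 66.2% and 55.1%.

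H3K4me3 and H3K27me3 on the gene varied with the distance of the domain, and mRNA coverage varied little. On chromosomes, H3K4me3 was on 87.0% (84.4% to 89.4%) of genes with the domain within 250 bp, 86.2% at 250 to 500 bp, 83.1% at 500 to 1000 bp, 77.9% at 1000 to 1500 bp and 76.5% (73.0% to 79.7%) at 1500 to 2000 bp. H3K27me3 ran the other way, at 8.05% (6.18% to 10.3%), 82 of 820 genes, 14.2%, 18.01% and 17.6% (14.8% to 20.8%). Comparison genes weighted to the span and spacing of each class moved less, between 78.3% and 76.9% for H3K4me3 and between 17.1% and 19.97% for H3K27me3. So weighted, the genes with the nearest domains were those that differed most from the comparison genes, in both marks. With span alone this did not hold for H3K27me3. Comparison genes were then at 12.7% within 250 bp and 12.9% at 1000 to 1500 bp, against 8.05% and 18.01% beside the domains. Genes beside domains with H3K27me1 also had H3K4me3 on 82.5% within 250 bp and 76.2% at 1500 to 2000 bp, and H3K27me3 on 12.98% and 19.7%. The trend with distance was thus not particular to domains without H3K27me1. Genes nearest to both kinds of domain, 936 of the 4701 over all sequences, were counted only with the domains without H3K27me1. Median coverage was 6.08 (5.61 to 7.05) within 250 bp, 6.90 (6.13 to 7.48) at 250 to 500 bp, 6.35 at 500 to 1000 bp, 5.99 at 1000 to 1500 bp and 5.89 (5.23 to 7.04) at 1500 to 2000 bp, with overlapping intervals. The comparison medians were 5.95, 5.83, 5.82, 5.73 and 5.72 in the same order.

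**Figure D4:**
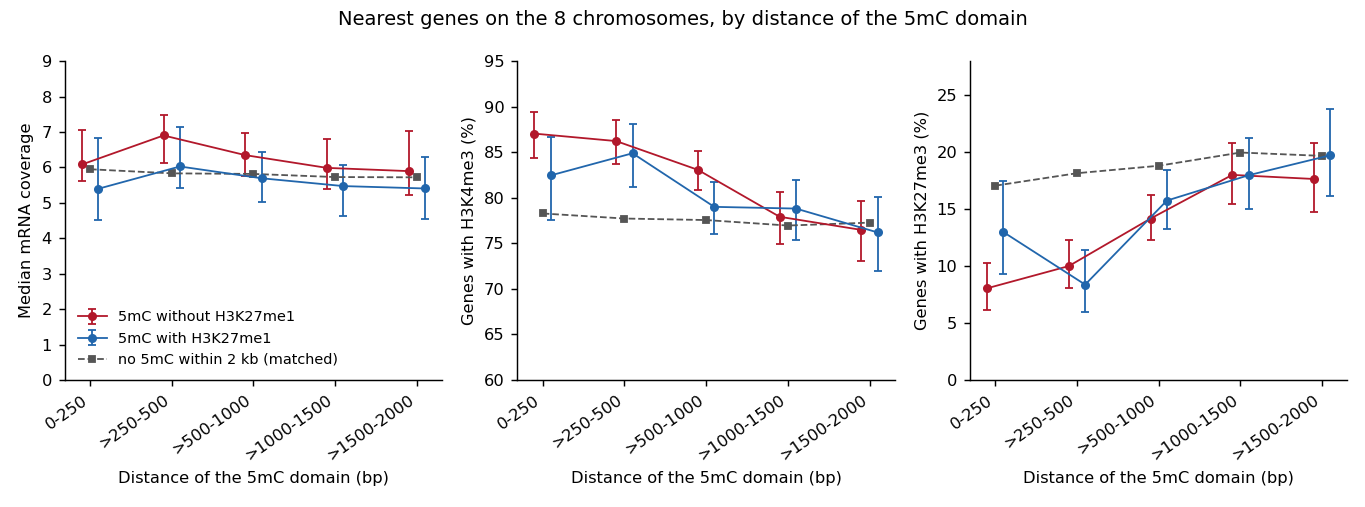
Median mRNA coverage (left), percentage of genes with H3K4me3 (middle, axis from 60%) and with H3K27me3 (right) for nearest genes on chromosomes, by distance of the 5mC domain in bp: domains without H3K27me1 (red), with H3K27me1 (blue) and genes without 5mC within 2 kb weighted to the span and spacing of the red genes (grey, dashed). Genes nearest to both kinds of domain are in the red set only. Bars are 95% intervals over genes. The red points for H3K4me3 run down with distance, 87.0% to 76.5%, those for H3K27me3 run up, 8.05% to 17.6%, and coverage stays between 5.89 and 6.90.

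Properties of the domain itself went with little difference in coverage. By the longest such domain of a gene, the medians were 5.73 (5.29 to 6.25) at 150 bp, 6.25 at 300 bp, 5.90 at 450 to 600 bp, 6.22 at 750 to 1200 bp and 6.95 (5.67 to 8.66) for 145 genes with one of 1350 bp or more. In 4 equal groups by score per kb the medians lay between 5.87 and 6.30, and H3K4me3 was on 80.8% to 82.9% of genes. The 384 genes with domains on both sides had a median of 6.38 (5.18 to 7.38) and the 4851 genes with domains on 1 side had 6.02 (5.76 to 6.35), counting every gene within 2000 bp. Median coverage thus did not fall steadily with length or score, and was not lower with domains on both sides, in this library. The lowest value was held by 10.2% (7.32% to 13.6%) of the genes with domains on both sides and 8.72% (7.94% to 9.55%) of those with domains on 1 side.

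Genes beside 5mC with H3K27me1 had somewhat lower coverage. This comparison took 3765 genes nearest only to domains without H3K27me1 and 2879 genes nearest only to domains with it, the second group weighted to the spans of the first. The medians were 6.22 (5.91 to 6.58) and 5.33, a log2 difference of 0.19, and the lowest value was held by 8.34% (7.48% to 9.27%) and 12.8%. With weighting by span and spacing the second group was at 5.50 and 12.1%, a log2 difference of 0.15 in coverage. The difference was smaller among genes without 5mC in the span, 3451 and 2483. Their medians were 6.65 (6.27 to 7.00) and 6.12, a log2 difference of 0.10, and the shares at the lowest value were 6.66% and 7.91%. With spacing weighted as well the second group was at 6.21 and 7.78%, a log2 difference of 0.086 in coverage. With span alone, H3K4me3 was on 83.0% and 81.1% of these genes without 5mC in the span, and H3K27me3 on 12.95% and 14.1%.

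Among longer genes beside the domains and with H3K4me3 at 1 end, most had their closest domain at that end. The table gives no strand, so the end of a gene with H3K4me3 over at least 150 bp of its outermost 300 bp, and none such at the other end, was used in place of a start. Of 1866 genes beside the domains, of at least 2 kb and with H3K4me3 at 1 end, 1254 had their closest domain at that end. This is 67.2% (65.0% to 69.3%). For domains with H3K27me1 the share was 66.0% (63.4% to 68.4%). The space differed between the ends, however. The median distance to the next gene was 3680 bp at the H3K4me3 end and 1285 bp at the other. These medians are over 9377 genes with H3K4me3 at 1 end, a wider set than the 1866.

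With equal space at both ends the difference between the ends was smaller, and in single distance classes their intervals were apart only up to 500 bp. Of 2758 genes with 2000 bp free of listed genes on both sides, 603 had a domain without H3K27me1 within 2000 bp of the H3K4me3 end, 21.9% (20.3% to 23.5%), and 472 of the other end, 17.1% (15.7% to 18.6%). Among the 857 genes with one at 1 end only, 57.6% (54.3% to 61.0%) had it at the H3K4me3 end. Within 250 bp of the end the numbers were 87 and 51 genes, 3.15% (2.53% to 3.88%) and 1.85% (1.38% to 2.42%). At 250 to 500 bp they were 121 and 60 genes, 4.39% (3.65% to 5.22%) and 2.18% (1.66% to 2.79%). At 1500 to 2000 bp they were 132 and 120 genes, 4.79% and 4.35%, with overlapping intervals. Domains with H3K27me1 were on 19.0% (17.5% to 20.5%) of these genes at the H3K4me3 end and on 14.5% (13.2% to 15.8%) at the other.

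**Figure D5:**
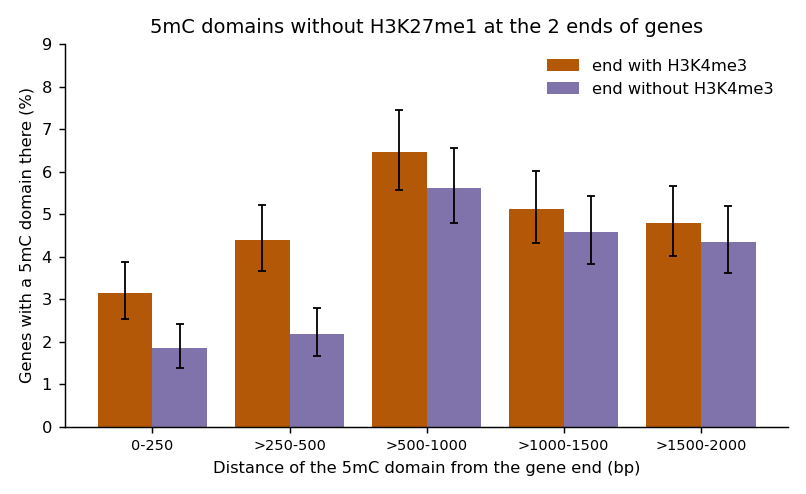
Percentage of 2758 genes, with H3K4me3 at 1 end and 2 kb free of listed genes on both sides, that have a 5mC domain without H3K27me1 at each distance in bp from the end with H3K4me3 (orange) and from the end without it (purple); bars are exact 95% intervals, and the first 2 classes are 250 bp wide, the others 500 bp. The ends differ at 250 to 500 bp, 4.39% against 2.18%, and their intervals overlap at 1500 to 2000 bp, 4.79% against 4.35%.

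The domains were spread over all chromosomes in similar form. Their number per 100 listed genes ranged from 18.3 on chromosome 8 to 27.5 on chromosome 7, and the share of flanking 5mC domains that lacked H3K27me1 from 52.6% on chromosome 6 to 60.04% on chromosome 3. The median length was 300 bp on each chromosome and on the scaffolds. Coverage of the nearest gene, against comparison genes of the same chromosome and span, differed by -0.14 on chromosome 3 to 0.20 on chromosome 6 in log2, and was higher on 6 of 8 chromosomes. H3K4me3 was more frequent beside the domains on 6 of 8 chromosomes, with differences from -0.73 to 8.77 percentage points. H3K27me3 was more frequent on 4 of 8, so that no direction common to the chromosomes was seen with span alone.

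Single domains were named by length, score and closeness to a gene. The longest, of 3750 bp on chromosome 6 (29797351 to 29801100, on the authors' assembly), lay 658 bp from Aa_G288610, a gene with coverage 8.68 and with H3K4me3 over 52.8% and H3K27me3 over 63.4% of its span. The second longest, of 3300 bp on chromosome 8 (34293751 to 34297050), lay 133 bp from Aa_G552220. That gene had coverage 1.04, H3K27me3 over 99.3% of its span and no H3K4me3. Neither domain was touched by H3K4me3 or H3K27me3, and neither gene held 5mC or H3K27me1.

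The domains with the highest score per kb stood well above their list. One of 1050 bp on chromosome 4 (3928801 to 3929850) had 7721 per kb, 11.5 times the median of all 5mC domains, and lay 1079 bp from a gene of coverage 11.1. One of 600 bp on chromosome 6 (35360851 to 35361450) had 5717 per kb, 8.49 times that median, and lay 588 bp from a gene of coverage 7.95. Both genes carried H3K4me3, over 43.6% and 15.1% of their spans, and neither carried H3K27me3, H3K27me1 or 5mC.

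The closest domains of at least 600 bp abutted their genes. One of 900 bp on chromosome 8 (14552401 to 14553300) ended at the base before a gene of coverage 20.3 that had H3K4me3 over 96.1% of its span. One of 1350 bp on chromosome 1 (19763401 to 19764750) left 1 base to a gene of coverage 5.64, in which other 5mC domains covered 45.6% of the span. The gene of highest coverage beside such a domain was Aa_G766090 on chromosome 3 (27578794 to 27578952, coverage 3373), 1698 bp from a domain of 450 bp. Its span of 159 bp is below the 200 bp needed to count as marked, and no mark touched it. Next was Aa_G436670 on chromosome 1 (15226150 to 15227008, coverage 2213), 992 bp from a domain of 600 bp, with H3K4me3 over 94.1% of its span.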

How the data were processed

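The deposited files are 4 domain lists and 1 mRNA table. Per the submitters' processing notes, Bowtie and SICER, which calls broad domains, were used. Their versions and settings, the genome build and how replicates were treated are not stated there. Each row of a deposited list ends in a whole-number score without a label. The mRNA table holds, by its deposited name, a coverage signal over exons per gene. It gives no strand or gene names, and sequence under the domains was not analysed here.

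Domain starts were read as 0-based and ends as inclusive, and distances count the bases between edges. The nearest gene was taken, or both when tied. Comparison genes were weighted by span class, or by span class and 4 equal classes of distance to the nearest other listed gene. A gene alone on its sequence was put in the widest of these 4 classes. The weighting is fixed, with no random draws. Interval arithmetic and weighting were tested on simulated data. Python 3.11.15, pandas 2.3.3, numpy 2.4.6 and SciPy 1.17.1 were used. Members and comparisons were chosen with earlier results of these data known. Named domains were the 2 longest, the 2 of highest score per kb, the 2 closest of at least 600 bp, and those beside the 2 genes of highest coverage. Comparisons on chromosomes alone (for marks, and for coverage with joint weighting), split by 5mC in the span, and with both flanks free were added after seeing the data.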

Additional observations from a re-analysis of the deposited data

How the results depend on the processing

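Of 57 alternative values, 25 stayed within the interval of the reported value or within 1.5 times a count, 26 moved and 6 changed sign; the cause was not tested unless the setting itself fixes it. The count of 5441 domains was 3276 at a limit of 1000 bp, 1757 at 500 bp and 3229 in the upper 50% of the list by score per kb, each smaller by construction. Requiring 50% of the domain put H3K4me3 on 0.735%. The H3K4me3 difference on genes, 6.61 percentage points, was 5.04 with 1 kb added on each side, 11.2 with span and spacing, 2.87 on chromosomes and 4.80 there with spacing. Without 5mC in the span it was 8.42, and 12.7 with spacing. The H3K27me3 difference, 1.43 points, was 0.287 at 50% of the span, 0.408 with 1 kb added and 0.403 without 5mC in the span. With spacing it was -2.93, on chromosomes -5.15, without 5mC in the span -3.76, and -6.02 with both restrictions. The H3K27me1 difference, 4.67 points, was 2.38 at 50% of the span, 10.8 with 1 kb added, and on chromosomes 3.76, or 3.54 with spacing. Without 5mC in the span it was 0.079, with spacing -0.076 and on chromosomes with spacing -0.19. The log2 coverage difference of 0.017 was 0.12 with spacing, 0.14 where the domains were the only 5mC, 0.098 on chromosomes with spacing, 0.11 without 5mC in the span, 0.21 with spacing added and 0.18 on chromosomes too. The share at the H3K4me3 end, 67.2%, was 69.8% within 1000 bp and 57.6% with both flanks free. No paired analysis was possible because the lists are not split by replicate, and no replicate could be left out. Depth is unknown for every library.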
